A study of Homo sapiens with 8 samples.

Results

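Complex I of the respiratory chain was followed at the transcript level in the established cell line Panc 10.05, which derives from a human pancreatic ductal adenocarcinoma. The genes were all rows of the count table with a symbol of the form NDUFA, NDUFB, NDUFC, NDUFS, NDUFV or NDUFAF and a number, or NDUFAB1, and a mean of at least 1 CPM, which is the number of counts scaled to a library of 1e6, over the 8 libraries. This gave 46 of 58870 gene rows. All 46 symbols of this form passed the level minimum, the lowest being NDUFAF1 at a mean of 13.2 CPM, and all 46 were among the 13860 genes tested. RNA sequencing had been performed on 4 libraries of control cells and 4 of cells labelled ELAPOR1 overexpression (endosome-lysosome associated apoptosis and autophagy regulator 1). The series title ties ELAPOR1 to tumour subtype and to metabolism. The labels do not say what the control cells carried, what drives the overexpression, or whether the cells were 1 clone or a pool. Nor do they say whether replicates were separate cultures, so p-values measure the spread between these libraries, which may be technical.

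Complex I (NADH:ubiquinone oxidoreductase) takes electrons from NADH, passes them along a chain of iron-sulfur clusters to ubiquinone, and pumps protons across the inner mitochondrial membrane. Its core is shared with bacteria. Mitochondrial DNA encodes the hydrophobic core subunits of the membrane arm, and the nucleus encodes the core subunits of the matrix arm, among them NDUFS1, NDUFS3, NDUFS7, NDUFS8, NDUFV1 and NDUFV2. The N module at the tip of the matrix arm oxidises NADH, the Q module below it reduces ubiquinone, and the membrane arm holds the proton channels. The many accessory subunits (most of the NDUFA, NDUFB and NDUFC proteins) surround this core, and assembly factors, among them the NDUFAF proteins, help to build it without staying in the finished enzyme. NDUFA4 keeps its name from complex I but is now placed in complex IV.

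Total counts were 13765509 to 18128757 per library and overlapped between groups (exact permutation p = 0.143, two-sided, the smallest possible p being 0.0286). ELAPOR1 itself had 1 to 4 counts in control and 5910 to 7368 in ELAPOR1 libraries, so the libraries matched their labels. All 5 epithelial markers were present, at a summed 10895 to 12037 CPM in control and 9787 to 10113 CPM in ELAPOR1 libraries. Fibroblast markers summed to 2.71 to 4.32 CPM over all libraries, with COL1A2, DCN and LUM at 0 counts, endothelial markers to 0.576 to 2.13 CPM with CDH5 at 0, and CD68 was the only one of 4 leukocyte markers above 1 CPM, while CD3E was at 0. One control library differed from the others for the genes of interest. Control replicate 1 was the lowest control library for 32 of the 46 genes, and their summed level was 2903 CPM there, against 3082, 3056 and 3157 CPM in the other control libraries and 2847 to 2942 CPM in ELAPOR1 libraries. Control replicate 4 was the highest control library for 23 of the 46 genes. The counts of calls over all 46 genes and by module are therefore also given without control replicate 1. Those over all 46 genes are given without control replicate 4 too.

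Promoter sequences are shown for NDUFV1 and NDUFV2, the nuclear core subunits of the NADH-oxidising module whose transcripts fell. Also shown are the changed genes whose promoter held the core of the NRF1 motif: NDUFB4 and NDUFA8, which fell, and NDUFA9, which rose. NRF1 is a transcription factor known for binding promoters of nuclear respiratory genes. The sequences come from RefSeq (GRCh38.p14), run 5′ to 3′ towards the gene and begin 250 bases before the start that RefSeq gives. Gene coordinates elsewhere are from GENCODE, whose outermost starts of NDUFV1 and NDUFV2 lie upstream of the RefSeq starts, so that the NDUFV1 stretch lies within the GENCODE gene. Those of NDUFV1 (chr11:67606686-67606935, plus strand) and NDUFV2 (chr18:9102449-9102698, plus strand) end at the start. Those of NDUFB4 (chr3:120596086-120596337, plus strand), NDUFA8 (chr9:122159768-122160029, minus strand) and NDUFA9 (chr12:4648864-4649134, plus strand) run 2, 12 and 21 bases past it, to the end of their last match. Capitals mark matches on either strand to the NRF1 core or, at the end of the NDUFA9 sequence, to the core of the motif of YY1, another promoter-binding factor. In NDUFA8 matches overlap.
NDUFV1: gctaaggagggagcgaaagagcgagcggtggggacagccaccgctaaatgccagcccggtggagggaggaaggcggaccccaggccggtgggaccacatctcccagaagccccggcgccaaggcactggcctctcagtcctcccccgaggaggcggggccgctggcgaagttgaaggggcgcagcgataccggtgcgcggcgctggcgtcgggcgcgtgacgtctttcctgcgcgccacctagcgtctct
NDUFV2: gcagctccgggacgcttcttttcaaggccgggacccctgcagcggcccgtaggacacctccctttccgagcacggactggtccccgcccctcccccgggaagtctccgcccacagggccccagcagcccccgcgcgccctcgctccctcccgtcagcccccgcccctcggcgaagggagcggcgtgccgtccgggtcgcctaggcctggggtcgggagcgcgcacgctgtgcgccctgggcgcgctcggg
NDUFB4: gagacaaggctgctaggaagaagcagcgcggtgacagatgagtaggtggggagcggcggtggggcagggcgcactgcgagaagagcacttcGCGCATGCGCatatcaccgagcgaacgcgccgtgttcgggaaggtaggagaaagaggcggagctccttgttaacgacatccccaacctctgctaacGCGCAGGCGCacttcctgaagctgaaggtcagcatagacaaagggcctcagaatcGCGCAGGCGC
NDUFA8: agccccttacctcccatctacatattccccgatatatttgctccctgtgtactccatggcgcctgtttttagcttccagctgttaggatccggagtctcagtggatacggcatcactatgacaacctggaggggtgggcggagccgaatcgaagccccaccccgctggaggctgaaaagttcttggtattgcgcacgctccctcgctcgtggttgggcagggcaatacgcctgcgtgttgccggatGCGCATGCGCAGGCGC
NDUFA9: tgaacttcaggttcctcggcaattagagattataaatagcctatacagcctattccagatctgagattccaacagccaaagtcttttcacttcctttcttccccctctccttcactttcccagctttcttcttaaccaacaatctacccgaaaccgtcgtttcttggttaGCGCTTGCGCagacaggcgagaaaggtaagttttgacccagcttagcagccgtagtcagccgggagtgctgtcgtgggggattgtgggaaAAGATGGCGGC

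In the promoter table, 39 of the 46 genes were found, with 51 promoters of 250 bases before to 50 bases after a start, since some genes have several starts. NDUFA4, NDUFAF6, NDUFB5, NDUFB9, NDUFC2 and NDUFS5 were among those not matched. The NRF1 core was present in 7 of the 51 promoters (13.7%) and in 5.78% of all 35116 promoters of this length. The YY1 core was present in 4 (7.84%, against 0.849% of all) and the core of the ETS motif that GABPA binds, CCGGAAGT, in 2 (3.92%, against 4.14%). The 7 genes with the NRF1 core did not share a direction, as NDUFA9 rose, NDUFA8 and NDUFB4 fell, and NDUFA3, NDUFA11, NDUFA12 and NDUFAF5 did not pass the test. The 3 genes with the YY1 core were NDUFA9 and NDUFAF8, which rose, and NDUFS4, which fell. A match is only a run of letters and does not show that a factor binds there.

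Most complex I transcripts changed little in cells overexpressing ELAPOR1, and those that did were more often lower than higher. Of the 46 genes, 18 passed the test (39.1%). Among all genes tested the share was 44.7%, so the share was not higher in this set. There were 13 lower genes (28.3%, against 22.1% of all genes) and 5 higher ones (22.6% of all genes were higher). After trends of each library against transcript length and GC content were removed, 11 genes were lower and 9 higher. The share that passed was then 43.5%, beside 46% of all genes, and the median log2 fold change of the 46 was -0.0034. The groups did not overlap for 14 genes, 10 lower and 4 higher (30.4%, against 39.2% of all genes). The largest change was that of NDUFB5, which fell by 19.4%, and the largest rise that of NDUFAF8, at 18.4%, so no gene changed by more than 1.24-fold. The median log2 fold change was -0.054, against 0.00087 over all genes, with a range from -0.31 to 0.24.

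The test was edgeR's quasi-likelihood test, with Benjamini-Hochberg adjustment over all genes tested and a threshold of 0.05. In bulk RNA, fewer cells with a transcript and less RNA per cell cannot be told apart. Among the 28 genes that did not pass, 95% intervals of the log2 fold change lay within 0.25 of zero for 26, and the bounds over all 28 reached -0.32 and 0.21. Without control replicate 1, 21 genes passed (beside 45.2% of all genes), 18 lower and 3 higher, and the median was -0.096. Without control replicate 4, 18 passed (beside 42.5% of all genes), 12 lower and 6 higher, and the median was -0.037. Complex I transcripts are short (median of 764 bases, against 1735 over all genes tested), and 39 of the 46 are shorter than that median. Of the 18 calls, 11 were made under each of 17 other fits: NDUFV1, NDUFV2, NDUFS4, NDUFA1, NDUFA2, NDUFA4, NDUFA8, NDUFA13, NDUFB4 and NDUFB5, all lower, and NDUFA5, higher.

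In the N module, most genes were lower. Of its 9 genes, 6 were lower (NDUFV1, NDUFV2, NDUFS4, NDUFS6, NDUFA2 and NDUFA7) and none was higher, beside 22.1% of all genes lower and 22.6% higher. Their median was -0.18 on the log2 scale. Its other genes, NDUFS1, NDUFV3 and NDUFA12, did not pass and were at 0.028, 0.0064 and 0.033. The summed level of the 9 genes was 713, 748, 750.3 and 782 CPM in control replicates 1 to 4 and 671, 679, 665 and 668 CPM in ELAPOR1 replicates 1 to 4. The groups did not overlap, and the mean was 10.4% lower (749 ± 28.3 against 671 ± 5.77 CPM, SD, n = 4 each). Without control replicate 1, 6 passed as well, and the number was 4 to 6 with each library left out in turn. With trends against GC and length removed, 5 were lower and the median was -0.13.

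NDUFV2 (chromosome 18, 9102630 to 9134345, plus strand, ENSG00000178127.13), a core subunit that carries an iron-sulfur cluster, fell most among core subunits. NDUFV2 had 151, 163, 159.5 and 166 CPM in control replicates 1 to 4 and 133, 132, 127 and 126 CPM in ELAPOR1 replicates 1 to 4. All ELAPOR1 libraries lay below all control libraries (log2 fold change -0.30, SE 0.036, edgeR adjusted p = 1.6e-08). The gene is overlapped by NDUFV2-AS1 on the other strand, which had 6 to 20 counts a library, and the pseudogene NDUFV2P1, to which reads can be divided, had 43.5 to 72.8. NDUFV1 (chromosome 11, 67605653 to 67612554, plus strand, ENSG00000167792.12) binds NADH and the flavin that accepts its electrons. NDUFV1 had 138, 145, 154 and 163 CPM in control replicates 1 to 4 and 127, 134, 124 and 125 CPM in ELAPOR1 replicates 1 to 4. Its ELAPOR1 libraries were all lower than its control libraries (log2 fold change -0.23, SE 0.042, edgeR adjusted p = 4.2e-05). With trends against GC and length removed the value was -0.16 (adjusted p = 1.8e-04).

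NDUFS1, the large N module core subunit with several iron-sulfur clusters, did not follow. NDUFS1 had 137, 130.2, 131 and 135 CPM in control replicates 1 to 4 and 136, 133, 135 and 139.6 CPM in ELAPOR1 replicates 1 to 4. The groups overlapped (log2 fold change 0.028, 95% interval -0.042 to 0.098, edgeR adjusted p = 0.54). The interval excludes falls of the size seen for NDUFV1 and NDUFV2. NDUFV3, an accessory subunit of this module, was at 27.1 ± 2.14 CPM in control and 27.2 ± 0.558 CPM in ELAPOR1 libraries (SD, n = 4 each).

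NDUFS4 (chromosome 5, 53560633 to 53683340, plus strand, ENSG00000164258.12), an accessory subunit that holds the N module in place and is mutated in Leigh syndrome, was lower. NDUFS4 had 55.3, 55.7, 54.7 and 63.7 CPM in control replicates 1 to 4 and 46.5, 48.1, 51.8 and 46.5 CPM in ELAPOR1 replicates 1 to 4. No ELAPOR1 library reached the control range (log2 fold change -0.25, SE 0.054, edgeR adjusted p = 2.2e-04). Control replicate 4 stood above the other control libraries, and without it the log2 fold change was -0.20. NDUFS6, a zinc-binding accessory subunit of the same module, was also lower. NDUFS6 had 82.4, 90.8, 90.3 and 84.3 CPM in control replicates 1 to 4 and 79.1, 80.04, 76.7 and 81.8 CPM in ELAPOR1 replicates 1 to 4. The groups were separate (edgeR adjusted p = 0.013, with a log2 fold change of -0.13 and an SE of 0.042). Its groups are separated by less than the spread within either, and the call was lost when control replicate 2, control replicate 3 or ELAPOR1 replicate 3 was left out (adjusted p = 0.064, 0.058 and 0.052; 0.0013 to 0.064 over all 17 other fits).

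NDUFA2 (chromosome 5, 140638740 to 140647785, minus strand, ENSG00000131495.8), a small accessory subunit with a thioredoxin-like fold, was lower too. NDUFA2 had 42.6, 45.9, 47.9 and 50.5 CPM in control replicates 1 to 4 and 39.2, 41.7, 38.2 and 37.9 CPM in ELAPOR1 replicates 1 to 4. All ELAPOR1 libraries were below all control libraries (log2 fold change -0.25, SE 0.057, edgeR adjusted p = 4.3e-04). NDUFA7 was lower at -0.18 (SE 0.063, adjusted p = 0.018), with overlapping groups, and its call was lost without control replicate 2 or 4 or ELAPOR1 replicate 2 and with trends against GC and length removed (adjusted p up to 0.084). NDUFA12 did not pass the test, with 49.1 to 50.9 CPM in control and 51.1 to 51.7 CPM in ELAPOR1 libraries (log2 fold change 0.033, 95% interval -0.063 to 0.13).

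The Q module, which hands electrons to ubiquinone, changed in both directions. Of its 5 genes, NDUFA5 rose, NDUFS7 was lower, and the others, among them NDUFS3 and NDUFS8, did not pass the test. The share that passed was 40%, beside 44.7% of all genes. Without control replicate 1, 2 were lower and 1 higher. The summed level was 346 to 371 CPM in control and 352 to 379 CPM in ELAPOR1 libraries, with overlapping groups and a mean 1.32% higher (359 ± 10.4 against 364 ± 11.2 CPM, SD, n = 4 each). Whether the N and Q modules differ from each other was not tested, since both were described after results of these data were known.

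NDUFA5 (chromosome 7, 123536997 to 123558255, minus strand, ENSG00000128609.15), an accessory subunit on the Q module, had the largest rise among subunits, at 13.6%. NDUFA5 had 56.3, 54.3, 57.4 and 56.3 CPM in control replicates 1 to 4 and 62.1, 65.9, 65.00 and 61.95 CPM in ELAPOR1 replicates 1 to 4. All ELAPOR1 libraries were above all control libraries (log2 fold change 0.18, SE 0.045, edgeR adjusted p = 1.1e-03). NDUFS3 is a core subunit of the same module. NDUFS3 had 59.7, 64.4, 64.01 and 65.6 CPM in control replicates 1 to 4 and 64.4, 64.4, 63.7 and 64.4 CPM in ELAPOR1 replicates 1 to 4. Its ELAPOR1 libraries lay inside the control range (log2 fold change 0.020, interval -0.071 to 0.11). NDUFS8 carries iron-sulfur clusters on the way to ubiquinone. NDUFS8 had 53.3, 59.7, 58.2 and 66.1 CPM in control replicates 1 to 4 and 53.6, 58.6, 54.9 and 52.6 CPM in ELAPOR1 replicates 1 to 4. The groups overlapped (log2 fold change -0.11, edgeR adjusted p = 0.097), and among 17 other fits passed only without control replicate 1 (-0.17, adjusted p = 0.0061). The value was -0.056 without control replicate 4 and turned to 0.020 with trends against GC and length removed. NDUFS7 holds the last cluster before ubiquinone. NDUFS7 had 52.4, 62.7, 59.9 and 59.6 CPM in control replicates 1 to 4 and 52.9, 55.9, 53.4 and 51.7 CPM in ELAPOR1 replicates 1 to 4. Control replicate 1 lay inside the ELAPOR1 range and the other control libraries above it (log2 fold change -0.13, SE 0.052, edgeR adjusted p = 0.036). The call was lost in 10 of 17 other fits, among them those without control replicate 2, 3 or 4 or ELAPOR1 replicate 1, 3 or 4 (adjusted p 0.0010 to 0.97), and with trends against GC and length removed the value was -0.0030.

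**Figure D1:**
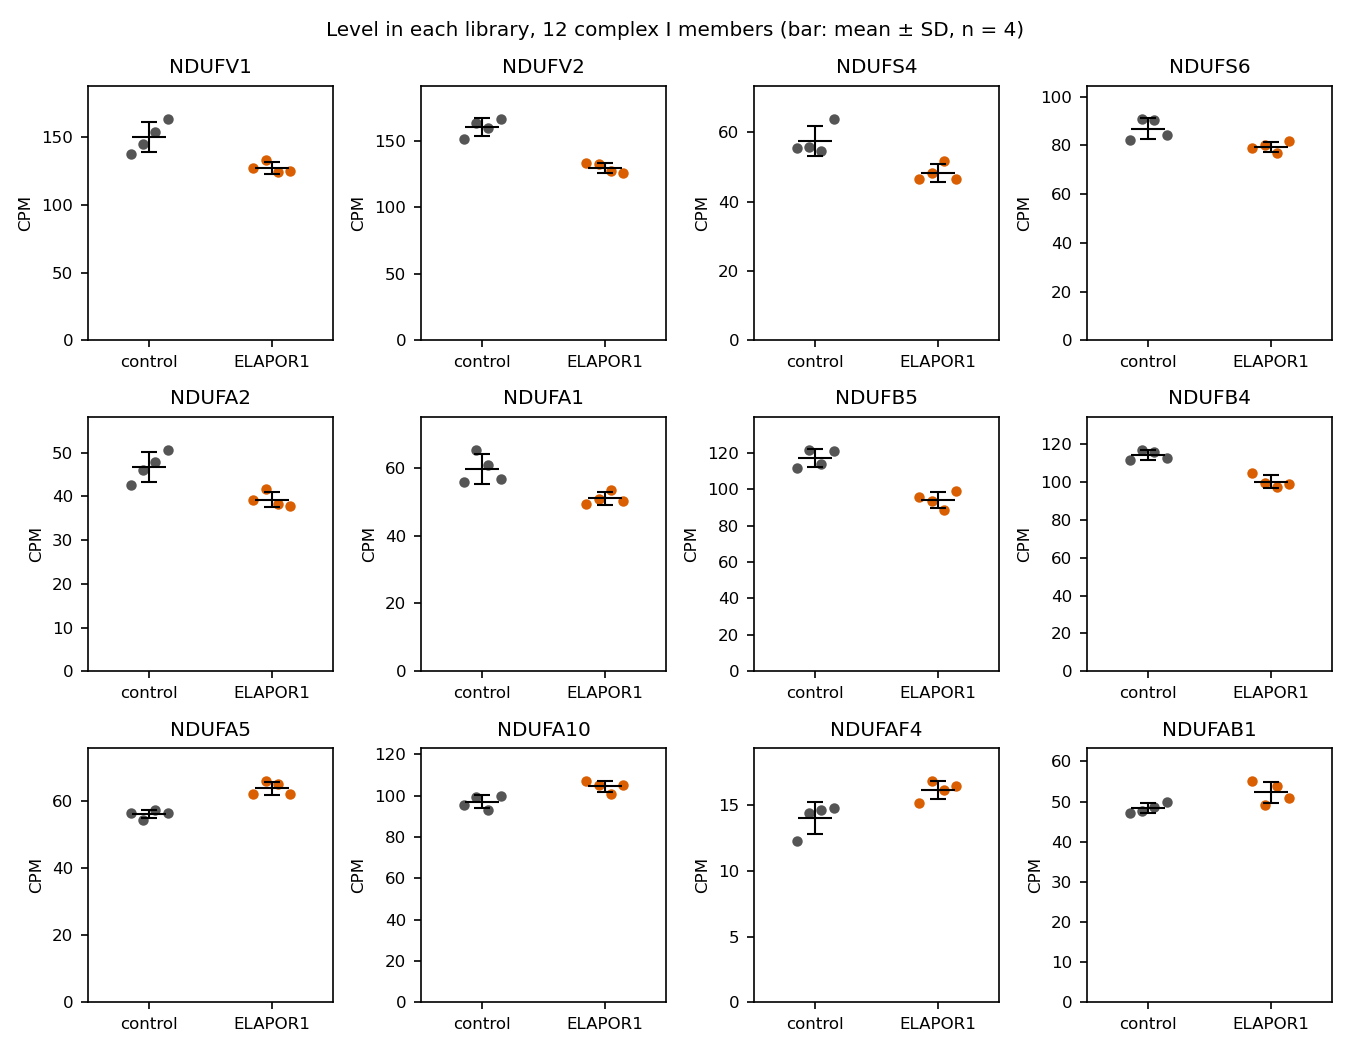
CPM (y axis, from 0) in each library for 12 genes, with control libraries in grey, ELAPOR1 libraries in orange and bars for mean ± SD (n = 4 each); points run from replicate 1 at the left to 4. NDUFV1, NDUFV2, NDUFS4, NDUFS6, NDUFA2, NDUFA1, NDUFB5 and NDUFB4 are lower and NDUFA5, NDUFA10 and NDUFAF4 higher in every ELAPOR1 library than in every control library, while NDUFAB1 overlaps.

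In the proximal membrane arm, which joins the matrix arm to the first proton channels, 3 of 8 genes were lower and 1 higher (median -0.099). So 50% of the genes of this arm passed, beside 44.7% of all genes tested. Without control replicate 1, 4 were lower and 1 higher, and with trends against GC and length removed 3 were lower and 2 higher (median -0.028). NDUFA1 (chromosome X, 119871487 to 119876662, plus strand, ENSG00000125356.7), a small membrane subunit needed for assembly, fell by 14.5%. NDUFA1 had 55.8, 65.1, 60.8 and 56.6 CPM in control replicates 1 to 4 and 49.3, 50.9, 53.5 and 50.1 CPM in ELAPOR1 replicates 1 to 4. The groups did not overlap (log2 fold change -0.23, SE 0.051, edgeR adjusted p = 4.8e-04). NDUFA8 was lower at -0.19 (SE 0.048, adjusted p = 1.4e-03), with 68.5 to 80.9 CPM in control and 61.6 to 67.0 CPM in ELAPOR1 libraries. NDUFA13, also known as GRIM-19, was lower at -0.20 (SE 0.049, adjusted p = 1.8e-03), with 97.7 to 118 CPM in control and 91.3 to 102 CPM in ELAPOR1 libraries, so that control replicate 1 lay inside the ELAPOR1 range. Its value was -0.11 (adjusted p = 0.018) with trends against GC and length removed.

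NDUFA10 (chromosome 2, 239892450 to 240025402, minus strand, ENSG00000130414.12) was the one member of this arm that rose. NDUFA10 had 95.7, 99.4, 93.3 and 99.9 CPM in control replicates 1 to 4 and 107, 105, 101 and 105 CPM in ELAPOR1 replicates 1 to 4. Every ELAPOR1 library was above the highest control library (log2 fold change 0.11, SE 0.039, edgeR adjusted p = 0.023). The rise was 7.70%, and its call was lost without control replicate 3 or ELAPOR1 replicate 1, 2 or 4 (adjusted p 0.053 to 0.098; 0.0013 to 0.098 over all 17 other fits). NDUFA3, NDUFC1, NDUFC2 and NDUFS5 did not pass, at -0.089, -0.042, -0.11 and 0.064. NDUFC2 shares its locus with the read-through gene NDUFC2-KCTD14, listed on its own with 38.7 to 97.5 counts in control and 18.8 to 30.8 in ELAPOR1 libraries, and its counts were divided between these rows.

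The distal membrane arm, made here of the 11 NDUFB genes, had 2 lower genes (18.2%, beside 22.1% of all genes) and none higher, with a median of -0.056. With trends against GC and length removed, 2 were lower and 2 higher (median -0.0037). NDUFB5 (chromosome 3, 179604690 to 179627647, plus strand, ENSG00000136521.13) had the largest fall of all 46 genes. NDUFB5 had 112, 121, 114 and 121 CPM in control replicates 1 to 4 and 95.8, 93.2, 88.5 and 98.9 CPM in ELAPOR1 replicates 1 to 4. All ELAPOR1 libraries lay below all control libraries (log2 fold change -0.31, SE 0.041, edgeR adjusted p = 1.0e-07). NDUFB4 (chromosome 3, 120596309 to 120602500, plus strand, ENSG00000065518.8), whose promoter with 3 NRF1 core sites is printed above, fell by 12.3%. NDUFB4 had 112, 117, 116 and 113 CPM in control replicates 1 to 4 and 105, 99.3, 97.1 and 98.6 CPM in ELAPOR1 replicates 1 to 4. The control libraries were all higher (log2 fold change -0.19, SE 0.038, edgeR adjusted p = 9.3e-05). The other 9 ran from -0.17 (NDUFB1, adjusted p = 0.055) to 0.047 (NDUFB8, adjusted p = 0.33). NDUFB9, the most abundant of all per length, had 0.024 (95% interval -0.047 to 0.095). Without control replicate 1, 4 NDUFB genes were lower, NDUFB2 and NDUFB6 being the additional ones, and the median was -0.0998.

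**Figure D2:**
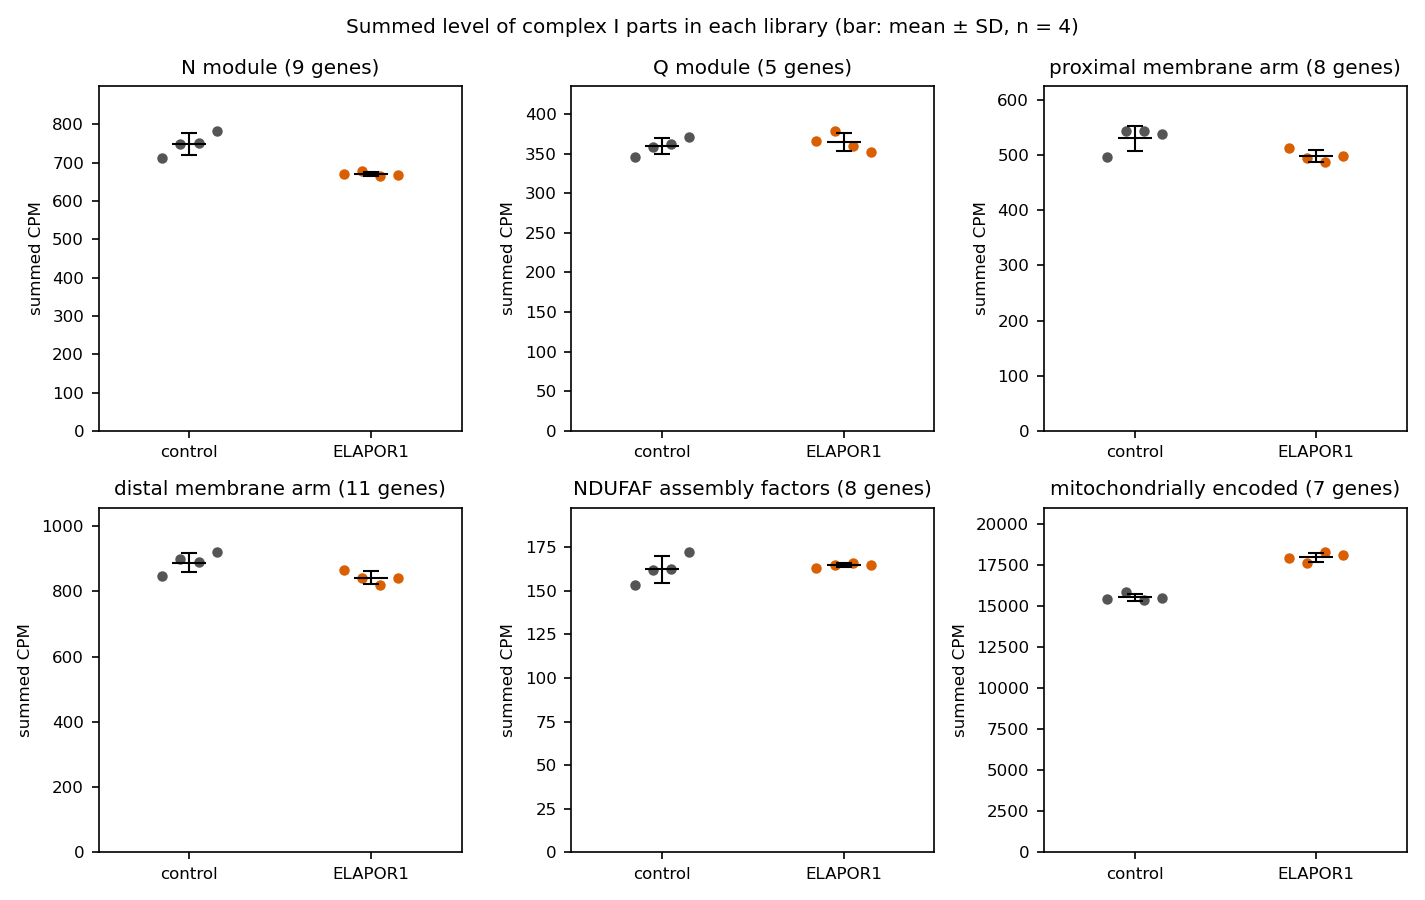
Summed CPM (y axis, from 0) of the N module, Q module, proximal and distal membrane arm, NDUFAF assembly factors and mitochondrially encoded subunits in each library, with bars for mean ± SD (n = 4 each) and points from replicate 1 at the left to 4. The N module is lower and the mitochondrially encoded genes are higher in every ELAPOR1 library than in every control library, and the other sums overlap.

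Of the remaining class A genes, NDUFA9, which sits between the Q module and the membrane, was higher at 0.12 (SE 0.045, edgeR adjusted p = 0.028) with overlapping groups, and lost its call with the DESeq2 Wald test and without control replicate 3 or ELAPOR1 replicate 1 or 4 (adjusted p up to 0.12). NDUFA6 and NDUFA11 did not pass, at 0.058 and -0.13. NDUFAB1 is the acyl carrier protein of mitochondrial fatty acid synthesis as well as a complex I subunit. NDUFAB1 had 47.1, 47.7, 48.7 and 49.9 CPM in control replicates 1 to 4 and 55.1, 49.2, 53.9 and 50.9 CPM in ELAPOR1 replicates 1 to 4. ELAPOR1 replicate 2 fell inside the control range, and the difference did not pass (edgeR adjusted p = 0.066, log2 fold change 0.11, SE 0.050). Over 17 other fits the adjusted p was 0.0042 to 0.22 and passed in 4. NDUFA4, the complex IV subunit, fell by 9.17%. NDUFA4 had 131, 143, 135 and 141 CPM in control replicates 1 to 4 and 126, 123, 127 and 122 CPM in ELAPOR1 replicates 1 to 4. Control libraries were again all higher (log2 fold change -0.14, SE 0.036, edgeR adjusted p = 2.0e-03). Without NDUFA4, 45 genes remain with 17 calls (37.8%, beside 44.7% of all genes), 12 lower and 5 higher.

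By symbol class, genes passed in 9 of 14 cases in class A (6 lower, 3 higher), 2 of 11 in class B, 0 of 2 in class C, 3 of 8 in class S and 2 of 3 in class V, the calls in B, S and V all being lower, and in 2 of 8 in class AF, both higher. The shares were 64.3% in A, 18.2% in B, 0% in C, 37.5% in S, 66.7% in V and 25% in AF, beside 44.7% of all genes. Of all genes, 22.1% were lower and 22.6% higher. Median log2 fold changes were -0.11 for A, -0.056 for B, -0.075 for C, -0.046 for S, -0.23 for V and 0.019 for AF. With trends against GC and length removed, they were -0.015 for A, -0.0037 for B, -0.028 for C, 0.0084 for S, -0.16 for V and 0.041 for AF. Those of B, S and AF were -0.0998, -0.087 and -0.014 without control replicate 1, and -0.037, -0.011 and 0.051 without control replicate 4. In class C, NDUFC2 passed in 6 of 17 other fits and NDUFC1 in none.

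Of the 8 assembly factors of the NDUFAF family, 2 rose, a share near the 22.6% of all genes that were higher, and none fell. Their summed level was 153 to 172 CPM in control and 163 to 166 CPM in ELAPOR1 libraries. NDUFAF4 (chromosome 6, 96889313 to 96897881, minus strand, ENSG00000123545.6), which acts with NDUFAF3 in building the Q module, rose by 15.3%. NDUFAF4 had 12.3, 14.4, 14.6 and 14.8 CPM in control replicates 1 to 4 and 15.2, 16.8, 16.2 and 16.4 CPM in ELAPOR1 replicates 1 to 4. The groups did not overlap, control replicate 1 being the lowest (log2 fold change 0.21, SE 0.084, edgeR adjusted p = 0.046). This call was lost in 9 of 17 other fits, among them those without control replicate 1, 2 or 3 or ELAPOR1 replicate 2, 3 or 4 (adjusted p 0.027 to 0.20), and the value was 0.14 without control replicate 1. NDUFAF8, the partner of NDUFAF5, was higher at 0.24 (SE 0.086, edgeR adjusted p = 0.021), with overlapping groups at 15.5 ± 1.79 and 18.4 ± 1.51 CPM (SD, n = 4 each), and lost its call without control replicate 1 or 2 or ELAPOR1 replicate 1, 3 or 4 (adjusted p up to 0.094).

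The other 6 factors did not pass. They are NDUFAF1, which belongs to the assembly complex of the membrane arm (-0.020), NDUFAF2, which holds the place of NDUFA12 during assembly (-0.11), NDUFAF3 (0.030), NDUFAF5, a hydroxylase acting on NDUFS7 (-0.11), NDUFAF6 (0.0073) and NDUFAF7, a methyltransferase (0.042). Their levels were low, from 13.1 to 33.6 CPM in group means, and the lowest bound of their 95% intervals was -0.30 for NDUFAF5. Of 12 assembly factors with other names, ECSIT (-0.30, edgeR adjusted p = 1.9e-04) and DMAC1 (-0.15, adjusted p = 0.021) were lower and COA1 (0.15, adjusted p = 0.024) was higher, with a median of -0.055. Of these 12, 25% passed, beside 44.7% of all genes. ACAD9, TMEM126B and TIMMDC1, which act beside ECSIT on the membrane arm, were at 0.056, -0.11 and -0.060 and did not pass.

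Per kilobase of transcript, levels in control cells ran from 5.13 CPM per kb for NDUFAF5 to 270.0 CPM per kb for NDUFB9. The median was 86.5 CPM per kb over the 38 subunit genes and 18.1 CPM per kb over the 8 NDUFAF genes. NDUFV1 came second at 213 CPM per kb, and no library of it reached the range of NDUFB9 (253 to 283 over all 8 libraries). NDUFV2 and NDUFB4, at 172 and 170.0 CPM per kb, did not differ beyond their spread in control libraries (162 to 179 and 166 to 174). In ELAPOR1 libraries, with NDUFV2 at 139 and NDUFB4 at 149 CPM per kb, the ranges were 135 to 143 and 145 to 156 and did not overlap. NDUFV3 was the lowest subunit, at 8.66 CPM per kb. These lengths are medians of annotated coding transcripts, so a gene with long, little-used isoforms reads too low on this scale.

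The mitochondrially encoded core subunits went the other way. Of 7, 6 were higher, beside 22.6% of all genes, and none lower (median log2 fold change 0.25), and 5 were higher without control replicate 1. The summed level of the 7 rose from 15539 ± 208 to 17981 ± 275 CPM (SD, n = 4 each). MT-ND2 was at 2906, 3009, 2899 and 2877 CPM in control replicates 1 to 4 and 3857, 3818, 3854 and 3823 CPM in ELAPOR1 replicates 1 to 4 (edgeR adjusted p = 4.6e-15, log2 fold change 0.39, SE 0.024). MT-ND5 rose from 1253 ± 95.1 to 1707 ± 15.9 CPM (0.45, SE 0.041, adjusted p = 2.8e-07) and MT-ND1 from 3632 ± 113 to 4269 ± 32.4 CPM (0.23, SE 0.025, adjusted p = 2.6e-09, SD, n = 4 each). For these 3 the groups were separate. MT-ND3, MT-ND4 and MT-ND6 were higher by 0.088, 0.062 and 0.25 with overlapping groups, and MT-ND4L did not pass at 0.25 (adjusted p = 0.14). MT-ND5 and MT-ND6 lie side by side on opposite strands, and the use of strand in counting was not stated. At an adjusted p under 0.01, 3 of the 7 passed, as they did without control replicate 3 or ELAPOR1 replicate 1.

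Among the nuclear genes of the other respiratory complexes, lower calls outnumbered higher ones, whereas 22.1% of all genes were lower and 22.6% higher. Counts for these complexes with trends against GC and length removed are not reported here. That removal brought the median of the 46 complex I genes from -0.054 to -0.0034. In complex III, 5 of 9 were lower and 1 higher (median -0.16), with UQCRB at -0.36 (edgeR adjusted p = 7.7e-11) and UQCRC2 at 0.15. In complex IV without NDUFA4, 7 of 10 were lower and none higher (median -0.12), with COX7C at -0.44. In complex II, 2 of 4 were lower and 1 higher, and in ATP synthase 6 of 17 were lower and none higher (median -0.069), with ATP5MC2, which encodes the ring subunit c, at -0.36. In complex I without NDUFA4 and NDUFAF genes, the 30 accessory subunits had 9 lower and 3 higher genes (median -0.063) and the 7 nuclear core subunits 3 lower and none higher (median -0.11).

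**Figure D3:**
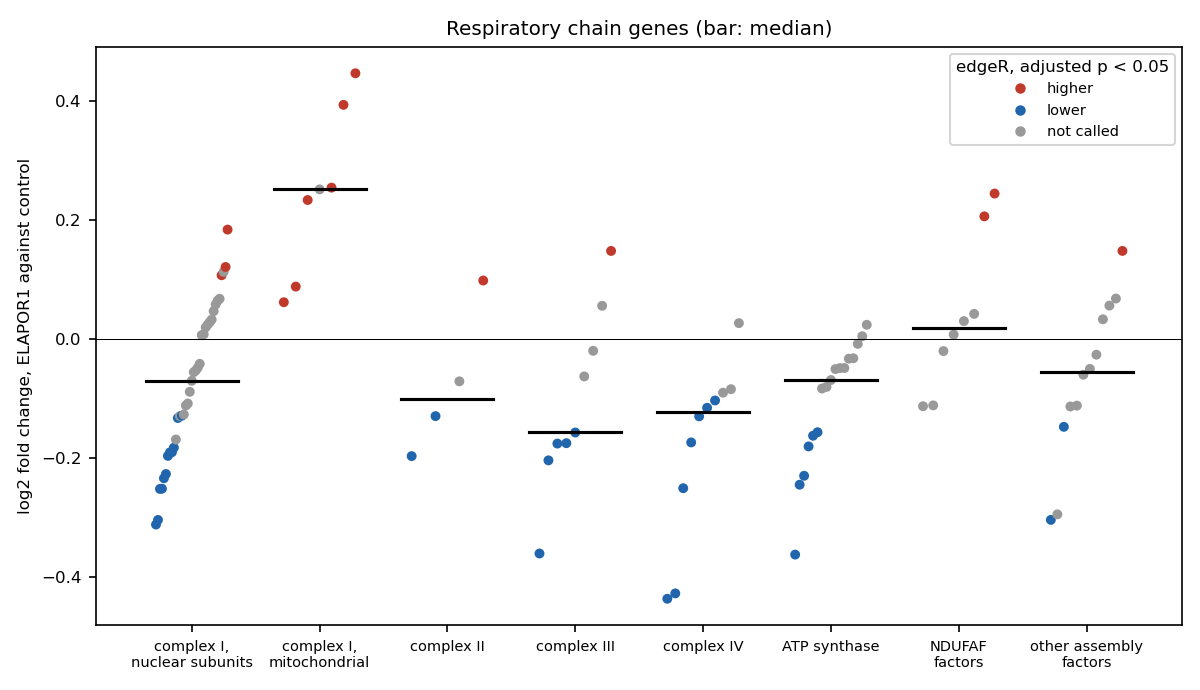
Log2 fold change (y axis, ELAPOR1 against control) of each gene of the respiratory complexes and of 2 groups of complex I assembly factors (x axis), with bars for medians; colours show calls at an edgeR adjusted p under 0.05. Nuclear complex I subunits run from -0.31 to 0.18 and the mitochondrially encoded subunits from 0.062 to 0.45.

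Genes that serve complex I differed among themselves. Of 13 iron-sulfur cluster assembly genes, NFS1 and ISCU, the sulfur donor and the scaffold, were lower by 0.16 each on the log2 scale (edgeR adjusted p = 0.011 and 0.0019), while BOLA3 (0.53) and IBA57 (0.41) were among the higher ones. Of 5 enzymes of mitochondrial fatty acid synthesis, which load the acyl carrier NDUFAB1, 3 were lower, beside 22.1% of all genes. These were HSD17B8 at -0.69, CBR4 at -0.31 and MECR at -0.25. HSD17B8 was low, at 3.76 ± 0.603 CPM in control and 2.32 ± 0.647 CPM in ELAPOR1 libraries (SD, n = 4 each). Its groups overlapped. Of 12 regulators of nuclear respiratory genes, 5 were higher and 3 lower, beside 22.6% of all genes higher and 22.1% lower. HIF1A rose by 0.43, PPRC1 by 0.36, GABPB1 by 0.22, TFB2M by 0.20 and TFAM, which packages mitochondrial DNA, by 0.18. ESRRA, a nuclear receptor acting on respiratory genes, fell from 80.1 ± 3.04 to 61.0 ± 3.90 CPM (SD, n = 4 each, log2 fold change -0.39, edgeR adjusted p = 1.8e-08). GABPA and YY1 were lower by 0.14 and 0.093 on the log2 scale, and NRF1 (0.10, adjusted p = 0.30) and MYC (-0.026) did not pass. PPARGC1A was at 0.548 and 0.686 CPM.

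Some complex I genes lie in stretches of chromosome whose genes shifted together. The 20 tested genes nearest to NDUFV2 on chromosome 18 had a median log2 fold change of -0.24, with 2 of 20 above zero, beside -0.30 for NDUFV2 itself. Those nearest to NDUFAB1 on chromosome 16 had a median of 0.45, with 19 of 20 above zero, beside 0.11 for NDUFAB1, which is thus below its neighbours. For NDUFV1 on chromosome 11 the neighbours were at -0.19 and NDUFV1 at -0.23. Neighbour medians of the other 43 genes lay between -0.18 and 0.15. The neighbour median was beyond 0.2 in either direction for only 2 of the 46 genes, NDUFV2 and NDUFAB1. The same sign as their neighbours' median was seen for 29 of all 46 genes. The matching share of all genes tested is not given here, so no conclusion is drawn from the 29. With NDUFV2 and NDUFAB1 left out, 17 of 44 genes passed (38.6%, beside 44.7% of all genes), 12 lower and 5 higher. The part of the neighbourhood in the change of NDUFV2 was not tested.

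**Figure D4:**
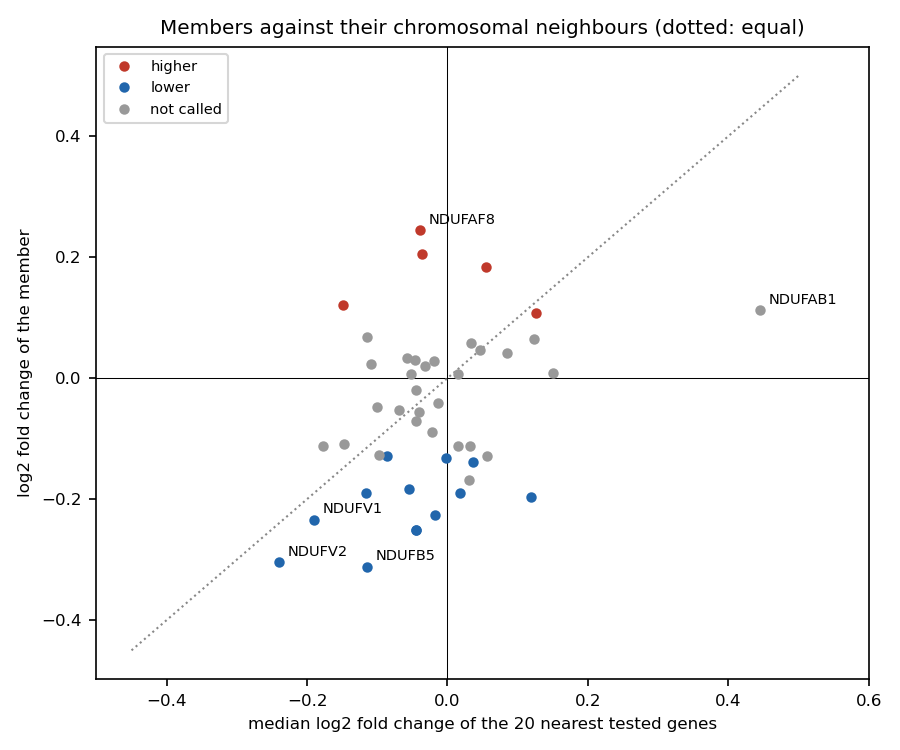
Log2 fold change of each of the 46 genes (y axis) against the median log2 fold change of its 20 nearest tested genes on the chromosome (x axis), coloured by call; the dotted line marks equal values. NDUFAB1, at 0.11 beside neighbours at 0.45, lies far below the line, and NDUFV2, at -0.30 beside -0.24, lies near it.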

How the data were processed

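RNA was measured in 8 libraries (4 control, 4 ELAPOR1) of Panc 10.05; per the labels' protocols it was extracted with TRIzol and sequenced on an Illumina NextSeq. The authors deposited expected counts per gene, unscaled, 1 column per library; 15.0% of nonzero values are not whole. Per the submitters' processing notes, cutadapt, STAR, RSEM and DESeq2 were used with build hg38; versions, annotation release and strand setting are not given in the sources used here. Of 58870 gene identifiers, 58597 were found without version in GENCODE release 29 (GRCh38), the source of coordinates, length and GC.

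Counts were rounded and tested over 13860 genes with edgeR 4.0.16 in R 4.3.3 (filterByExpr, TMM, robust quasi-likelihood test, two-sided, no covariate). CPM are counts per 1e6 after TMM scaling; membership used CPM from column totals. Intervals use the fit's degrees of freedom. Class A includes NDUFAB1. Modules leave out border subunits (NDUFA6, NDUFA9, NDUFA11, NDUFAB1). The members and lists were chosen with earlier results of these data known. Genes with full values were up to 2 rises and 2 falls per class without overlap, the core subunits, NDUFAB1 and NDUFA4; NDUFA7, NDUFA8, NDUFA9, NDUFA12, NDUFA13, NDUFV3, NDUFAF8 and some genes of other lists were added after their values were seen. Alternatives were DESeq2 1.42.0, limma-voom (limma 3.58.1), other scalings, filters and thresholds, the replicate block, libraries left out, and spline trends (5 degrees of freedom) against GC and length. The fit was tested on simulated data. Values of some single genes that enter the counts, sums and medians are not reported here. Plots used matplotlib 3.10.9.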

Additional observations from a re-analysis of the deposited data

Results flagged for a closer look

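For 3 genes, 1 library of a group was distant from its 3 fellow replicates, with a gap beyond Dixon's 95% limit for 4 values. Among 36 groups examined (18 genes, each in control and in ELAPOR1 libraries) chance gives about 1.8. Control replicate 4 had 63.7 CPM of NDUFS4, while the remaining controls had 54.7 to 55.7 CPM, and all 4 lay above the ELAPOR1 libraries. Control replicate 1 had 12.3 CPM of NDUFAF4, while the remaining controls had 14.4 to 14.8 CPM, and the rise of this gene did not pass without that library (log2 fold change 0.14, edgeR adjusted p = 0.20; 0.027 to 0.20 over 17 other fits). ELAPOR1 replicate 3 had 63.7 CPM of NDUFS3, while the remaining ELAPOR1 libraries had 64.37 to 64.45 CPM, a gap of under 1 CPM.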

How the results depend on the processing

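The replicate numbers did not pair the samples (correlations of same-numbered deviations from group means were -0.112 to 0.0355 over 10703 genes, and no control library correlated best with its own number); with the replicate block, 19 of the 46 genes passed, 14 lower and 5 higher, and 5926 of all genes. At an adjusted p under 0.01, 11 genes passed (23.9%, beside 33.8% of all genes) and 1 was higher. The Q module then had 1 call and the mitochondrially encoded genes 3. The number of higher genes was 3 with the DESeq2 Wald test and 9 with GC and length trends removed, which also gave 11 lower. With these, 32.6% and 43.5% of the 46 genes passed, beside 40.4% and 46% of all genes. The Q module had 1 call with total count scaling, the DESeq2 Wald test, limma-voom and GC and length trends removed. The distal membrane arm had 4 calls with upper-quartile scaling, all lower, and 4 with GC and length trends removed, 2 lower and 2 higher. The median of class S reversed to 0.0084 with those trends removed, and that of class AF to -0.014 without control replicate 1 (up to 0.051 with other libraries left out); the causes were not tested. With each library left out in turn, 13 to 21 genes passed, 11 to 18 lower and 1 to 6 higher. The median was then -0.096 to -0.037. The lowest share that passed was 28.3% without ELAPOR1 replicate 4, beside 39.7% of all genes. The highest was 45.7% without control replicate 1, beside 45.2% of all genes. Calls were 4 to 6 in the N module, 1 to 3 in the Q module and 3 to 6 among mitochondrially encoded genes. The proximal and distal arm had 3 to 5 and 2 to 4. Higher genes numbered 3 without control replicate 1 or 2 or ELAPOR1 replicate 3, 2 without control replicate 3 or ELAPOR1 replicate 1, and 1 without ELAPOR1 replicate 4. A mean of at least 5 CPM kept all 46 genes. The number of lower genes stayed within 1.5 times of 13 under all 20 alternatives. The 46 genes had 184 to 3542 counts a library, and standard errors of their log2 fold changes ran from 0.035 (NDUFS1) to 0.096 (NDUFAF1).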
